A study of Homo sapiens with 6 samples.

Results

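The 10 genes examined belong to the circadian clock, the transcription loop that keeps time in most human cells, or to its outputs. They are taken by name, by a rule that uses no measured value: the activators CLOCK and ARNTL (now BMAL1), the repressors PER1, PER2, PER3, CRY1 and CRY2, the output factors DBP and TEF, and the feedback factor BHLHE40. Each was matched by its symbol in the authors' merged read count table, and 10 of 10 were found among 57992 gene IDs. All 10 also passed the filter on low counts, which kept 16740 genes. RNA came from the established cell line OVCAR8, which derives from a human ovarian carcinoma. Both groups were seeded at 300000 cells per well in RPMI with 10% FBS and, 24 hours later, kept in serum-free RPMI for 16 hours. The 3 untreated libraries, numbered 2 to 4 in the labels, received nothing more, and the 3 relaxin-2 libraries, numbered 1 to 3, received 50 ng/mL of recombinant human relaxin-2 (RLN2), a peptide hormone of the insulin superfamily, for 8 hours. Stranded total RNA libraries held 11939147 to 22426768 reads assigned to genes.

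CLOCK and ARNTL are partners that bind DNA as a pair at E-boxes and switch on the PER and CRY genes. PER and CRY proteins then enter the nucleus and block that pair, and their slow turnover closes a loop of about a day. DBP and TEF are leucine zipper factors that carry the rhythm to genes with D-boxes, and BHLHE40 (DEC1) is a repressor that competes for E-boxes and also answers to serum, hypoxia and cAMP. PER1 is in addition a textbook immediate early gene with cAMP response elements, and relaxin receptors are known to signal through cAMP. Each library samples a single time after serum withdrawal, so these data give levels and no phase or rhythm. The sample details used here give no collection time for the untreated cells. A difference between the groups in time since serum withdrawal therefore cannot be told apart from the treatment.

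The libraries differed in ways that the treatment labels do not describe. Each library's deviation from the gene means was fitted on transcript GC content. Its slope per 10 percentage points of GC was -0.46 on the log2 scale in untreated replicate 2, between -0.04 and 0.05 in the other untreated libraries, 0.03 in relaxin-2 replicate 1, and 0.24 and 0.18 in relaxin-2 replicates 2 and 3. The structural RNAs RN7SK, RN7SL1 and RN7SL2 held 0.263% of gene reads in untreated replicate 2 and 0.676% to 0.926% elsewhere. Relaxin-2 replicate 2 had the fewest gene reads, 27.0% multimapping reads against 5.31% to 6.19% in the rest, and 5.37% mitochondrial reads against 0.859% to 1.41%. Of the markers checked for the labelled cell type, the 5 epithelial genes summed to 1449 to 2476 CPM (the usual read counts scaled to library size) in untreated and 2275 to 2761 CPM in relaxin-2 libraries. KRT18 and KRT8 made up most of this sum, with means of 1165 and 705 CPM in untreated libraries. CDH1, on the same list, had only 102 reads in all. The 5 Müllerian and ovarian carcinoma markers summed to 50.4 to 90.9 and 90.9 to 117 CPM, with PAX8 present and MUC16 and SOX17 at 4 and 5 reads in all. Leukocyte markers were near 0, with CD3E at 0 reads, endothelial markers summed to at most 2.27 CPM, and the fibroblast list, 10.7 to 18.7 CPM with DCN at 0, came mostly from PDGFRB.

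Levels can be compared between genes only per length, so CPM were divided by kilobases of exon (RPKM, on library sizes scaled by trimmed mean of M values, TMM). CRY1 was the most abundant clock transcript at 23.9 ± 1.68 RPKM (SD, n = 6 libraries). BHLHE40 followed at 21.2 ± 2.66 RPKM, and the ranges of these top genes overlapped. CLOCK came next at 11.5 ± 0.98 RPKM, apart from both neighbours. Its partner ARNTL was at 2.16 ± 0.162 RPKM and PER3 at 1.61 ± 0.0982 RPKM, again without overlap. CRY2 (0.855 ± 0.153 RPKM), PER2 (0.555 ± 0.0897), TEF (0.524 ± 0.133) and PER1 (0.386 ± 0.124) each overlapped the next gene down, which for PER1 was DBP (0.149 ± 0.0272). From CRY1 to DBP the mean level differed 159.8-fold, and the median tested gene was at 3.62 RPKM. With the mean length of a gene's annotated transcripts in place of all its exons, CLOCK moved to second place and PER1 from ninth to seventh.

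**Figure D1:**
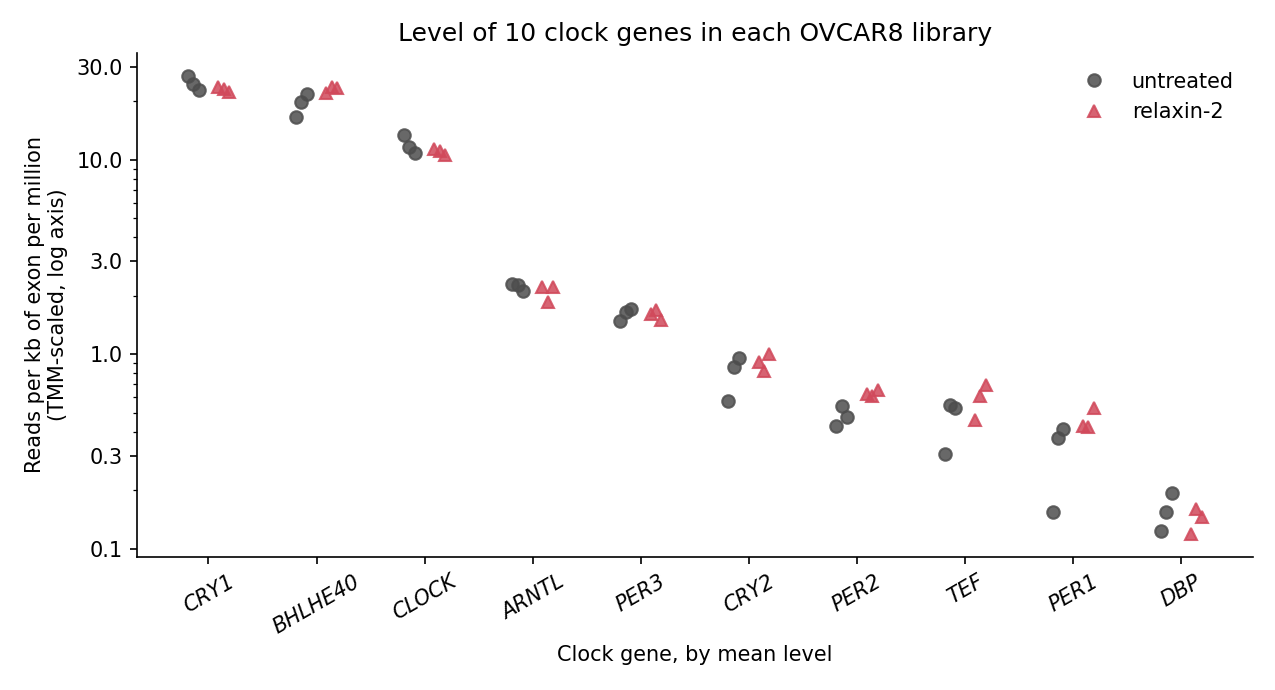
Level of each clock gene in each library, in RPKM on a log axis, with circles for the 3 untreated and triangles for the 3 relaxin-2 libraries. CRY1, BHLHE40 and CLOCK lie at 10.6 or above in every library, while DBP stays at or under 0.194.

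Comparing relaxin-2 with untreated cells asked whether any clock transcript differed after 8 hours of the hormone. None of the 10 passed edgeR's quasi-likelihood test at a Benjamini-Hochberg adjusted p under 0.05, and 0 of all 16740 genes did (percent called 0, smallest adjusted p = 0.408). DESeq2 and limma-voom also called 0 genes. Of the clock genes 5 had a positive and 5 a negative log2 fold change, with a median of 0.10, beside a median of -0.01 over all tested genes, of which 47.8% were positive. At an unadjusted p under 0.05 there were 2 clock genes, PER2 and BHLHE40, both higher after relaxin-2, where 6.3% of all genes were (1055 genes, and 756 or 4.52% on the lower side). In PER1, PER2 and BHLHE40 all 3 relaxin-2 libraries lay above all 3 untreated ones, as in 10.8% of all genes, and in no clock gene did they all lie below, as in 10.5%. Nothing in the labels states that the replicates were grown separately, and the p-values may therefore reflect technical spread alone.

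**Figure D2:**
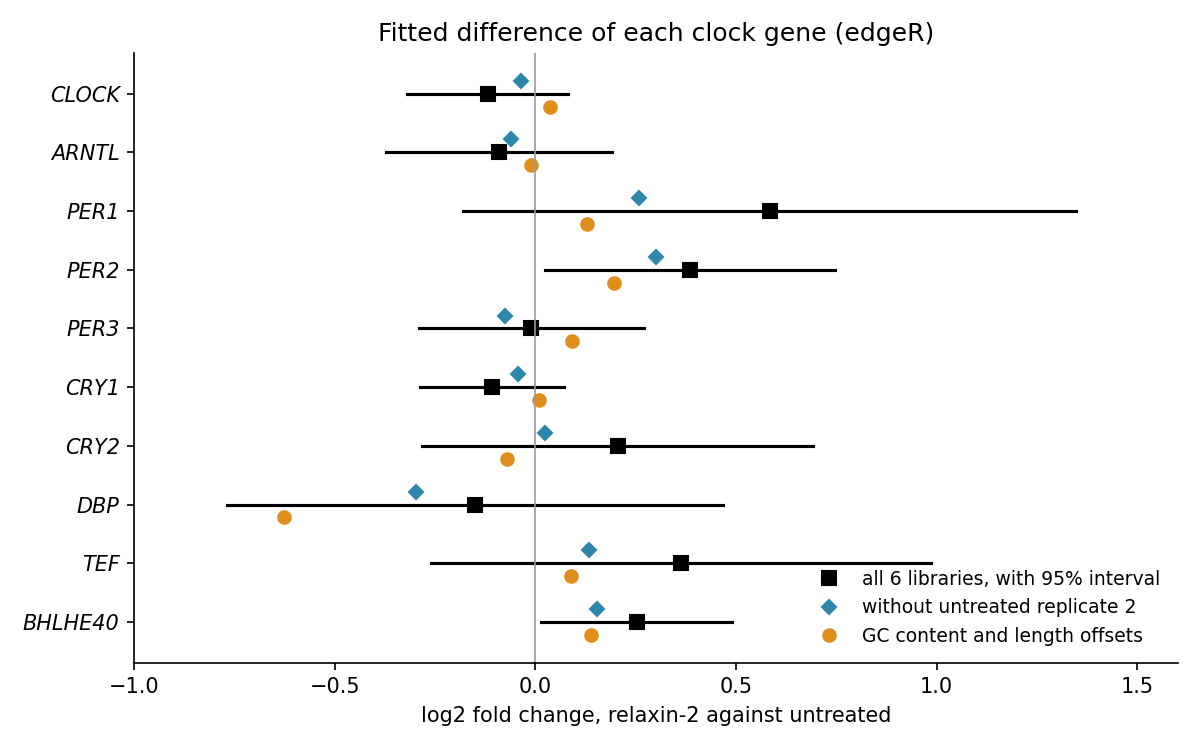
Log2 fold change of each clock gene, relaxin-2 against untreated (squares, bars are 95% intervals from the edgeR fit to all 6 libraries), with the value without untreated replicate 2 (diamonds) and with GC content and length offsets (circles). The intervals of PER2 and BHLHE40 lie above 0 before adjustment for the number of genes, and both other fits bring each of these genes nearer to 0.

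Of the activators CLOCK was abundant and ARNTL lay below the median tested gene, and neither passed the test. CLOCK (ENSG00000134852, chromosome 4, 55427903 to 55547138, minus strand, GRCh38), whose product also acetylates histones, had 157, 137 and 128 CPM in untreated replicates 2, 3 and 4 and 134, 130.0 and 125 CPM in relaxin-2 replicates 1, 2 and 3. The groups overlapped, with untreated replicate 2 highest and relaxin-2 replicate 3 lowest. The log2 fold change was -0.12 ± 0.09 (SE), with a 95% interval from -0.32 to 0.08 and an edgeR adjusted p of 0.469. Without untreated replicate 2 it was -0.03. ARNTL (ENSG00000133794, chromosome 11, 13276652 to 13387266, plus strand) had 15.5, 15.2 and 14.2 CPM untreated and 14.9, 12.5 and 14.8 CPM after relaxin-2. Only relaxin-2 replicate 2, the shallowest library with 143 ARNTL reads, fell outside the untreated range. The fitted difference was -0.09 ± 0.12 (adjusted p = 0.684), with an interval from -0.37 to 0.19. It was -0.01 without relaxin-2 replicate 2.

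The period genes encode the repressors that oscillate most in tissues, and here they were split. PER2 (ENSG00000132326, chromosome 2, 238244038 to 238290102, minus strand) had 2.93, 3.73 and 3.29 CPM in untreated replicates 2, 3 and 4 and 4.28, 4.18 and 4.50 CPM in relaxin-2 replicates 1, 2 and 3. Every relaxin-2 library thus lay above every untreated one, from 48 to 99 reads per library. The 95% Poisson intervals overlapped, at 2.98 to 4.61 CPM in untreated replicate 3 and 3.08 to 5.54 CPM in relaxin-2 replicate 2. The log2 fold change was 0.39 ± 0.16, from 3.31 ± 0.403 to 4.32 ± 0.162 CPM (SD, n = 3), with an interval from 0.02 to 0.75, an unadjusted p of 0.0397 and an edgeR adjusted p of 0.408. DESeq2's Wald test gave an unadjusted p of 0.139, and 6 of 19 alternative settings gave an unadjusted p under 0.05. Without untreated replicate 2 the log2 fold change was 0.30. With offsets for transcript GC content and length, described with the GC values, it was 0.19.

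PER1 (ENSG00000179094, chromosome 17, 8140472 to 8156506, minus strand) varied most among the 10 genes, with a 3.41-fold span between libraries. It had 1.08, 2.59 and 2.88 CPM untreated and 3.00, 2.96 and 3.68 CPM after relaxin-2. The groups did not overlap, but the gap was small: 2.88 CPM in the highest untreated library (50 reads, 95% Poisson interval 2.14 to 3.80) against 2.96 CPM in the lowest relaxin-2 library (34 reads, 2.05 to 4.14), intervals that cover counting error only. The log2 fold change of 0.58 ± 0.33 (adjusted p = 0.413) rested on untreated replicate 2, which had 24 reads. Leaving that library out gave 0.26, and the offsets gave 0.13. The interval over all libraries ran from -0.18 to 1.35. PER1 shares 108 bases of its exons with annotations on the same strand, MIR6883 and AC129492.3, and the latter had 0 reads.

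PER3 (ENSG00000049246, chromosome 1, 7784320 to 7845177, plus strand), a PER protein that the core loop can do without, was the steadiest of the 10, with a 1.16-fold span. Its untreated values were 11.9, 13.3 and 13.9 CPM and its relaxin-2 values 13.0, 13.7 and 12.2 CPM. The groups lay over one another, and the fitted difference was -0.01 ± 0.12 with an interval from -0.29 to 0.27 (edgeR adjusted p = 0.968).

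Cryptochromes are the stronger repressors of the CLOCK and ARNTL pair. CRY1 (ENSG00000008405, chromosome 12, 106991364 to 107093829, minus strand) had 136, 124 and 116 CPM untreated and 119.8, 117 and 113 CPM after relaxin-2. As with CLOCK, untreated replicate 2 was highest and the other libraries overlapped. The log2 fold change was -0.11 ± 0.08, with an interval from -0.29 to 0.07 (adjusted p = 0.467), and -0.04 without untreated replicate 2. CRY2 (ENSG00000121671, chromosome 11, 45847118 to 45883248, plus strand) had 3.56, 5.35 and 5.94 CPM untreated and 5.68, 5.05 and 6.23 CPM after relaxin-2. Untreated replicate 2 stood below the rest, and the other 5 libraries overlapped. The difference of 0.20 ± 0.21 (adjusted p = 0.592) was 0.02 without that library.

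The output factors had the fewest reads. DBP (ENSG00000105516, chromosome 19, 48630030 to 48637438, minus strand), an albumin promoter factor and in many tissues one of the most rhythmic transcripts, had 12 to 23 reads per library. That gave 0.810, 1.01 and 1.27 CPM untreated and 0.779, 1.05 and 0.955 CPM after relaxin-2. The groups overlapped, and the log2 fold change was -0.15 ± 0.27 with an interval from -0.77 to 0.47 (adjusted p = 0.768). It was -0.30 without untreated replicate 2 and 0.01 without untreated replicate 4. TEF (ENSG00000167074, chromosome 22, 41367333 to 41399326, plus strand), a thyrotroph factor of the same PAR bZIP family, had 1.44, 2.59 and 2.48 CPM untreated and 2.17, 2.87 and 3.27 CPM after relaxin-2. Relaxin-2 replicates 2 and 3 lay above all untreated libraries and replicate 1 within their range. Its log2 fold change was 0.36 ± 0.27 (adjusted p = 0.477), and 0.13 without untreated replicate 2. The interval of TEF ran from -0.26 to 0.99, so a difference of the size fitted for PER2 lies within the intervals of both genes.

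BHLHE40 (ENSG00000134107, chromosome 3, 4979116 to 4985323, plus strand) was the most abundant of the 3 members with separate groups. It had 63.8, 75.7 and 83.3 CPM in untreated replicates 2, 3 and 4 and 84.3, 91.0 and 90.0 CPM in relaxin-2 replicates 1, 2 and 3. Untreated replicate 4 and relaxin-2 replicate 1 were close, and the means were 74.3 ± 9.82 and 88.4 ± 3.60 CPM (SD, n = 3). The log2 fold change was 0.25 ± 0.10, with an interval from 0.01 to 0.49, an unadjusted p of 0.0402 and an edgeR adjusted p of 0.408. Leaving out untreated replicate 2 gave 0.15, and the offsets gave 0.14. In bulk RNA, more of a transcript per cell and more cells with it cannot be told apart.

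**Figure D3:**
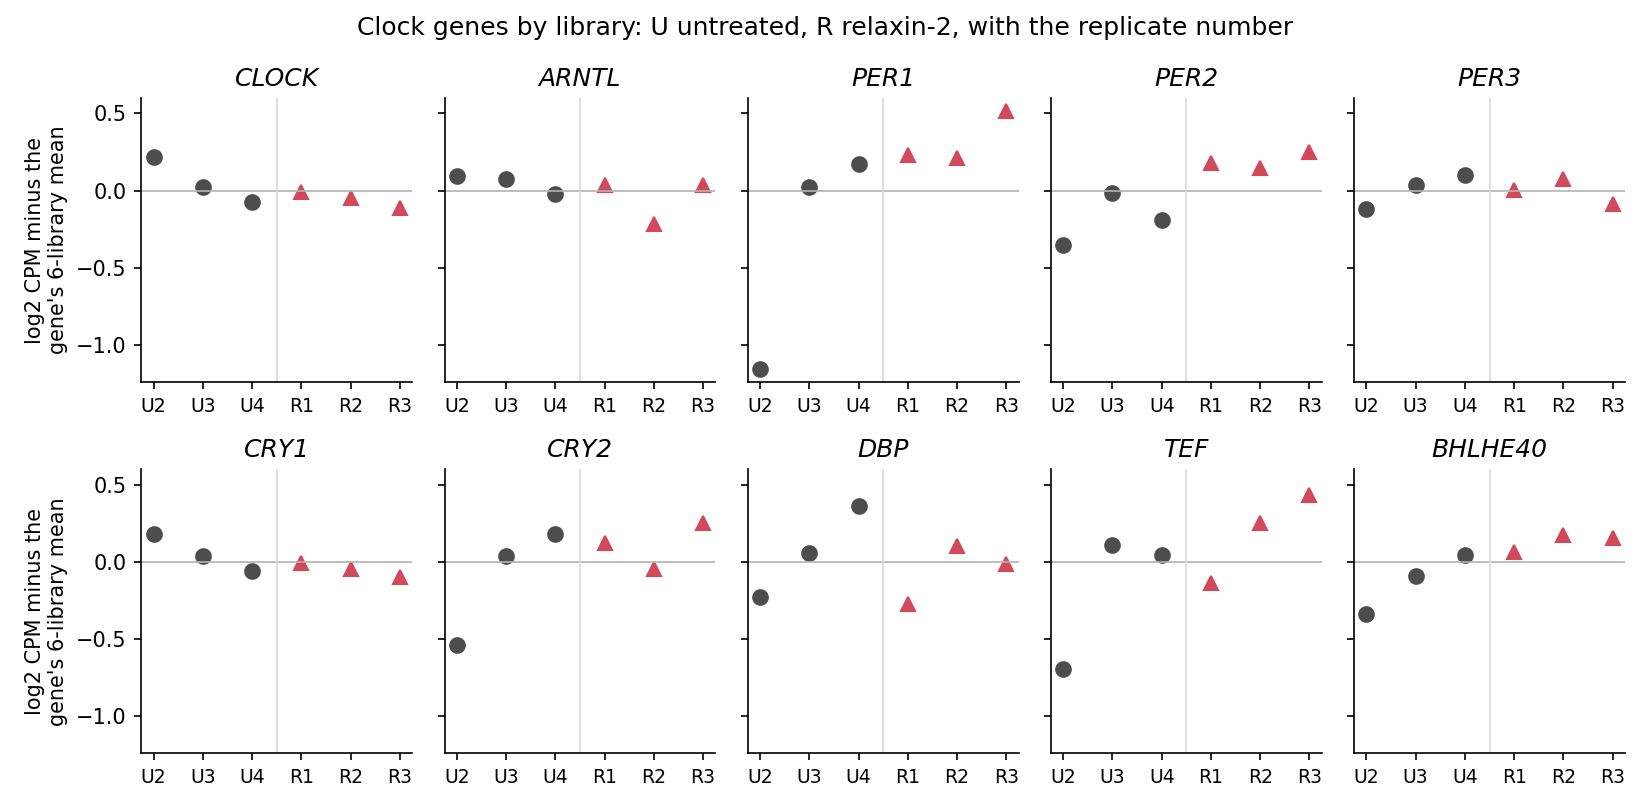
Deviation of each clock gene from its own mean over the 6 libraries (log2 CPM, y axis) in untreated (U, circles) and relaxin-2 (R, triangles) libraries, labelled by replicate number. PER1, TEF, CRY2, PER2, BHLHE40 and PER3 are lowest in untreated replicate 2, where CLOCK, CRY1 and ARNTL are highest, and PER1 there is 1.16 below its mean.

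Promoter sequences are shown for the 3 genes whose groups did not overlap, since clock factors and cAMP signals are known to act on clock promoters. RefSeq promoter windows (GRCh38.p14), 250 bases before to 50 after a start, matched all 10 genes, and some genes had more than 1 start. Both strands were searched for the E-box CACGTG, the E-box variant CACGTT and the D-box TTATGTAA, which reads TTACATAA on the other strand. The cAMP response element TGACGTCA and the nuclear receptor site AGGTCA were searched in the same way, and matches are in capitals. The E-box variant was added after the windows were read. The related D-box form TTACGTAA was not searched, and it stands in lower case in the PER2 window. The PER1 window is chr17:8152355-8152654 (minus strand), the PER2 window chr2:238288561-238288860 (minus strand) and the BHLHE40 window chr3:4979187-4979486 (plus strand), each written 5′ to 3′ on the gene's strand.
PER1: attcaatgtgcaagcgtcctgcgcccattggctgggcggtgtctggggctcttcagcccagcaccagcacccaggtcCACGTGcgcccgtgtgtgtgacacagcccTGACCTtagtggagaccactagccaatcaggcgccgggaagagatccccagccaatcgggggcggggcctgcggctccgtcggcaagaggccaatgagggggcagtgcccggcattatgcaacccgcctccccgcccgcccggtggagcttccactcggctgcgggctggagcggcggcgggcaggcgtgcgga
PER2: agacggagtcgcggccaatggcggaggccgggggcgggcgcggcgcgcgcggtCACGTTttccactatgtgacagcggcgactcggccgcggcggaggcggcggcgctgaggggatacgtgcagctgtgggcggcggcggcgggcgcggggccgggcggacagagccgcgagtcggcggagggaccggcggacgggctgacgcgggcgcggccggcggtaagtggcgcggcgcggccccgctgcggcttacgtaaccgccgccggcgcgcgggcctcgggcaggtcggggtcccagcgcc
BHLHE40: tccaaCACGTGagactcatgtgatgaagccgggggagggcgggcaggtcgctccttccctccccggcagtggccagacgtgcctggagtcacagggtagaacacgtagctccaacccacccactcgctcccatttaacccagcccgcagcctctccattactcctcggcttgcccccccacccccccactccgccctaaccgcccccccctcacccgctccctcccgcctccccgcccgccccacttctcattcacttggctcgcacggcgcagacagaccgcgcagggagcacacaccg

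PER1 and BHLHE40 each held an E-box, starting at -173 and -245 from the RefSeq start, and PER1 a nuclear receptor site at -144. PER2 held the variant at -197. The 10 genes had 15 windows in all. An E-box was in 4 of these (PER1, BHLHE40 and both windows of TEF) and in 7.26% of all 35116 windows, and the variant in 4 (CLOCK, PER2, CRY1 and CRY2) and in 5.34% of all windows. The nuclear receptor site was in 4 windows (ARNTL, PER1 and both of CRY2) and in 13.8% of all. A D-box of the searched form was in 1 (PER3) and in 0.886% of all. The intact cAMP response element was in 0 of the 15 and in 1.85% of all. The members' windows held a median of 29 CpG pairs (6 to 60) against 14 over all windows, and both E-box forms contain a CpG, so these shares are not from windows of like composition. These matches describe letters in short windows. TEF, with an E-box, and CLOCK, CRY1 and CRY2, with the variant, had overlapping groups.

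Across libraries some clock genes deviated together. CLOCK and CRY1, an activator and a repressor of the same loop, were most alike: their log2 deviations differed by a root mean square of 0.02 over the 6 libraries, the smallest of the 45 pairs, and the next was ARNTL with CRY1 at 0.10. CLOCK and CRY1 also had the most reads of the 10 genes, 15474 and 13837 in all. The distances between members were not set beside those of other gene pairs. CRY1 reads were 0.870, 0.903 and 0.905 of CLOCK reads in the untreated libraries and 0.894, 0.897 and 0.904 in the relaxin-2 libraries. This spread, a coefficient of variation of 1.49%, was smaller than the mean counting error of the ratio, 2.94%. PER1 to CLOCK, in contrast, ran from 0.00688 to 0.0295, a 4.29-fold range. Its coefficient of variation was 36.6% and its mean counting error 15.1%. CLOCK and PER1 were the pair least alike, at 0.64. Among the 13073 other genes whose average log2 CPM was 1 or higher, those near to BHLHE40 included NMT1, an N-myristoyltransferase, at 0.01 and the receptor kinase AXL, at 0.01, beside a median distance of 0.25. Nearest to PER2 were the mitochondrial assembly gene HIGD2A, the proprotein convertase PCSK6 and CMTM7, each at 0.06, beside a median of 0.28. Picking the nearest of so many genes over 6 libraries gives small distances by construction.

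Transcript GC content moved with these differences. Among all tested genes, split by GC content into 4 bins of equal size, the lowest bin had a median log2 fold change of -0.16 with 10.7% of genes positive, and the highest bin had 0.40 with 93.5% positive. CLOCK (40.4% GC), PER3 (44.2%), CRY1 (44.7%) and ARNTL (47.6%) lay in the lower 2 bins, and all 4 had negative fold changes. PER1 (62.6%), CRY2 (57.8%) and TEF (57.0%) lay in the highest bin, PER2 (55.0%) and BHLHE40 (53.3%) in the one below it, and these 5 were positive. DBP was the exception, at 62.0% GC with a fold change below 0. With offsets that remove each library's trend on GC content and length, CLOCK was 0.04, ARNTL -0.01, PER1 0.13, PER2 0.19, PER3 0.09, CRY1 0.01, CRY2 -0.07, TEF 0.09 and BHLHE40 0.14. DBP went the other way, to -0.63, with an unadjusted p of 0.0329 and an edgeR adjusted p of 0.456. Under the same offsets BHLHE40 had an unadjusted p of 0.0231 and an adjusted p of 0.441, and 0 genes in all passed.

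**Figure D4:**
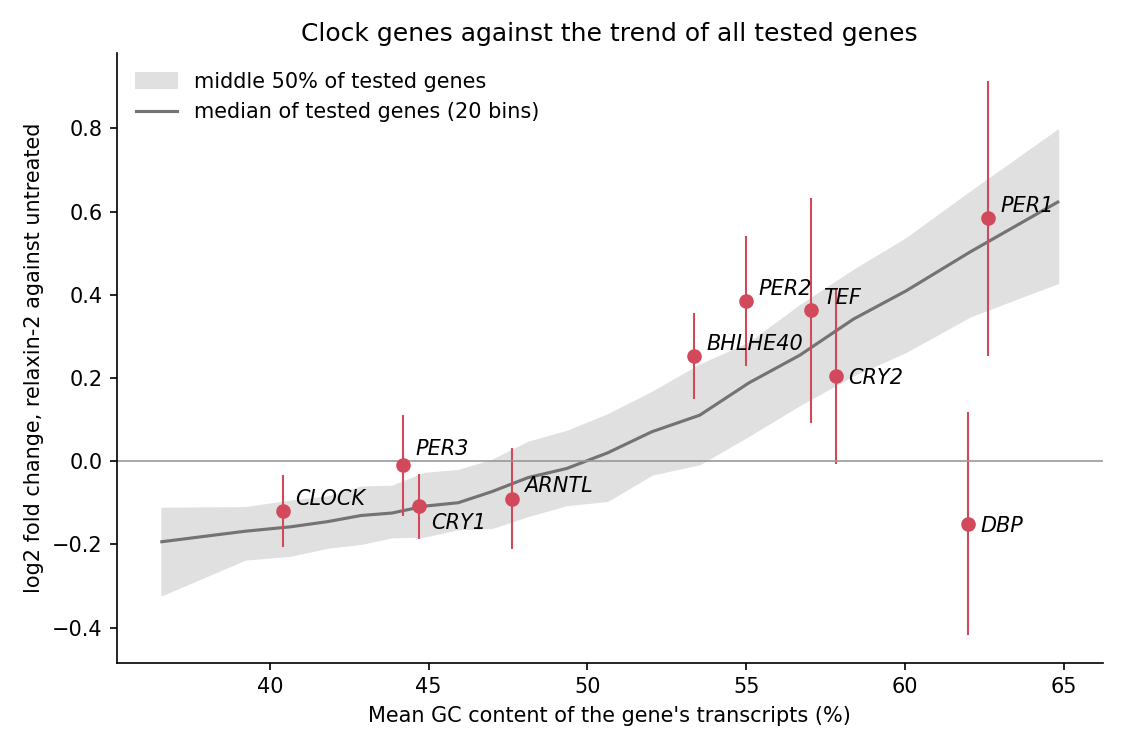
Log2 fold change of each clock gene (points, bars are ± 1 SE, y axis) against the mean GC content of its transcripts (x axis), over the median and middle 50% of all tested genes in 20 bins of equal size. Of the 10 genes DBP lies farthest below the median line.

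The other genes of the clock were read from the same fit by role. Of 37 listed, 34 were tested, 13 with a positive and 21 with a negative fold change and a median of -0.05, and 0 passed the edgeR test. Of those not tested, HLF and FBXL21P had 31 and 33 reads in all. Among loop partners and nuclear receptors 4 were positive and 4 negative. The heme receptor NR1D1 (REV-ERBα), which represses ARNTL, had 0.495, 0.790 and 1.27 CPM untreated and 1.56, 1.66 and 1.05 CPM after relaxin-2, a difference of 0.74 ± 0.36 (adjusted p = 0.408). Its groups overlapped, and the difference was 0.45 without untreated replicate 2, 0.37 under the offsets and 0.31 when the model held 1 surrogate variable, a fitted factor for unlabelled variation. RORA, which activates ARNTL, had -0.21 ± 0.13 (adjusted p = 0.423). NFIL3, the repressor at D-boxes, had -0.15 ± 0.10 (adjusted p = 0.461), and -0.09 without untreated replicate 2 and -0.08 without relaxin-2 replicate 2.

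Among the 17 tested kinases, ligases and partners of PER and CRY 6 were positive and 11 negative. CSNK1D, the casein kinase that marks PER proteins for decay, had 24.8, 30.1 and 35.8 CPM untreated and 33.6, 47.9 and 40.5 CPM after relaxin-2. Its difference was 0.42 ± 0.17 (unadjusted p = 0.0365, adjusted p = 0.408), and relaxin-2 replicate 1 lay within the untreated range. With the GC content and length offsets it was 0.06. TIMELESS, a replication fork protein that also binds clock proteins, had 85.6, 89.5 and 114 CPM untreated and 111, 127 and 121 CPM after relaxin-2, a difference of 0.31 ± 0.12 (unadjusted p = 0.0302, adjusted p = 0.408). Here too the groups overlapped. PRKAA2, a catalytic subunit of the AMP-activated kinase that marks CRY proteins for decay, was lower, at 64.5 ± 6.10 CPM untreated and 55.0 ± 2.88 CPM after relaxin-2 (SD, n = 3), and was singled out after its values were seen. Its groups did not overlap, the sole such case among the 17, while 10.5% of all genes were separated on the lower side. At an unadjusted p under 0.05 the 17 held 2 higher and 1 lower, beside 6.3% and 4.52% of all genes. The difference of PRKAA2 was -0.23 ± 0.09 (unadjusted p = 0.0380, edgeR adjusted p = 0.408). With the offsets it was -0.05, and without relaxin-2 replicate 2 -0.19.

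Of the 8 output genes 3 were positive and 5 negative. WEE1, the mitotic inhibitor kinase under E-box control, had 90.7, 78.1 and 77.5 CPM untreated and 77.5, 73.1 and 71.1 CPM after relaxin-2. Its groups touched at 77.5 CPM to this precision and otherwise did not overlap, as in 10.5% of all genes on the lower side. The difference was -0.15 ± 0.09 (adjusted p = 0.413). NAMPT, the NAD salvage enzyme, had -0.14 ± 0.09 (adjusted p = 0.445). Without untreated replicate 2 WEE1 was at -0.08 and NAMPT at -0.04, and with the offsets they turned to 0.0044 and 0.02.

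The stranded tables also count reads of the strand opposite to each gene, which the comparison above does not use. Over all libraries PER2 and PER3 had 0 such reads of 431 and 1468, which allows shares of up to 0.696% and 0.204% by a limit of 3 counts. PER1, CRY1, CRY2 and BHLHE40 had shares of 0.267% to 0.512%, beside a median of 0.369% over 16402 genes, and TEF had 1.77%. DBP stood apart with 90 opposite-strand reads against 110 of its own, a share of 45.0% (exact 95% interval 37.98% to 52.2%). Exons of SPHK2, a sphingosine kinase gene with 399 reads of its own, overlap those of DBP on the other strand. CLOCK, which overlaps TMEM165 and AC024243.1 in the same way, had 1180 opposite-strand reads, a share of 7.09% (6.70% to 7.49%). TMEM165 had 15265 reads of its own and AC024243.1 had 44. How many of the opposite-strand reads at CLOCK belong to TMEM165 was not tested. ARNTL had 233, a share of 12.2% (10.8% to 13.8%), and no exon on the other strand overlaps its own in GENCODE release 29. Of the 16402 genes, 85.2% had a lower share than CLOCK, 88.7% a lower share than ARNTL and 95.9% a lower share than DBP. Taken over the reads of all genes, the opposite-strand share was 4.80% to 5.33% per library.

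Opposite-strand reads of CLOCK were at 12.2, 13.7 and 10.7 CPM in untreated replicates 2, 3 and 4 and at 8.96, 6.80 and 7.86 CPM in relaxin-2 replicates 1, 2 and 3. Those of ARNTL were at 2.52, 2.41 and 1.96 CPM and at 1.78, 1.66 and 1.68 CPM. In both, every relaxin-2 library lay below every untreated one, as in 8.74% of the 7807 genes tested on these reads, and these genes were singled out after their values were seen. CLOCK alone was also lower at an unadjusted p under 0.05, as were 3.82% of those genes. The log2 fold change was -0.62 ± 0.15 for CLOCK (unadjusted p = 0.0022) and -0.43 ± 0.22 for ARNTL (unadjusted p = 0.0749), with edgeR adjusted p of 0.551 and 0.568, and 0 of the 7807 genes passed, with 699 at an unadjusted p under 0.05. Leaving out each library in turn gave -0.73 to -0.53 for CLOCK and -0.53 to -0.36 for ARNTL. TMEM165, on the strand opposite to CLOCK, had -0.15 ± 0.08 on its own reads (edgeR adjusted p = 0.410). The share of all reads assigned to no exon on the counted strand was also lower with relaxin-2, 17.5% to 25.8% against 27.9% to 32.0%. This share includes opposite-strand reads that lie on no exon of another gene. Its total includes unmapped and multimapping reads, and the lowest value, 17.5%, is relaxin-2 replicate 2 with 27.0% multimapping reads. The part of this share in the values above was not tested. DBP's opposite-strand reads had 0.61 ± 0.44 (adjusted p = 0.665), and 0.15 without relaxin-2 replicate 2. SPHK2, on the strand opposite to DBP, had 0.68 ± 0.28 on its own reads (edgeR adjusted p = 0.408). How many of the opposite-strand reads at DBP belong to SPHK2 was not tested.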

How the data were processed

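Total RNA of 6 OVCAR8 libraries, 3 untreated and 3 with relaxin-2, was extracted with TRIzol and sequenced from stranded libraries, per the labels' protocols. The authors deposited raw read counts per gene, made with STAR on hg38, per the submitters' processing notes; no version or annotation is stated in the sources used here. The reverse-strand column was used, since it held 17.8 to 19.8 times the reads of the forward column. All 24635 IDs shared with the authors' merged count table had identical counts, and PER1, which has 2 lines there, was counted once. Lines that name no gene (ambiguous reads, 2.36% to 4.18%, and unmapped reads, 6.73% to 17.4%, among them) stayed out of library sizes and tests. Coordinates, exon lengths and GC content came from GENCODE 29 (GRCh38), which held 57388 of 57992 IDs, and GC content was known for 99.6% of tested genes.

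After filterByExpr and TMM scaling, edgeR 4.0.16 (R 4.3.3) fitted a quasi-likelihood model with treatment as the only term, and two-sided p-values were adjusted over all tested genes by Benjamini-Hochberg. The median standard error was 0.16, and the code was checked on simulated counts. Log2 deviations used a prior count of 2. Alternatives were DESeq2 1.42.0, limma-voom (limma 3.58.1), other scalings, no filter, the unstranded column, the merged table, a threshold of 0.10, libraries left out, a replicate block, GC content and length offsets (natural splines, 4 degrees of freedom each) and 1 surrogate variable (sva 3.50.0). The fit of opposite-strand reads, and the 4-library fit without a block, were added after seeing the data. Named genes are the 10 members, the 2 of each role with the smallest p, and the 3 genes nearest in pattern to the 2 members with the smallest p, with some of these genes not reported here. The members, lists and rules were chosen with earlier results of these data known.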

Additional observations from a re-analysis of the deposited data

How the results depend on the processing

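None of the 10 genes and none of the other clock genes passed the threshold under any of the alternatives run. Of 190 values (10 genes, 19 alternatives) 173 kept their direction and 17 turned; PER1, PER2 and BHLHE40 kept theirs throughout, over ranges of 0.06 to 0.92, 0.19 to 0.48 and 0.09 to 0.39, with the lowest of PER1 and BHLHE40 under 1 surrogate variable. With the GC content and length offsets CLOCK was 0.037, PER3 0.090, CRY1 0.0099, CRY2 -0.071, WEE1 0.0044, NAMPT 0.017 and AXL -0.14. With 1 surrogate variable CLOCK was 0.013, CRY2 -0.061, TEF -0.056 and NAMPT 0.0060. ARNTL was 0.016 without both libraries numbered 2, and PER3 0.044 with unstranded counts. Leaving out each library in turn gave -0.075 to 0.037 for PER3 and -0.30 to 0.010 for DBP. The cause of these turns was not tested.

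Over all genes, edgeR called 120 with no filter on low counts (115 of them higher), 3 without untreated replicate 2 and 0 on leaving out any other library, 3 without both libraries numbered 2 and 14 with 1 surrogate variable. DESeq2 and limma-voom called 0, with 1677 and 2058 at an unadjusted p under 0.05 (edgeR 1811). Numbers 2 and 3 occur in both groups, and deviations of same-numbered libraries correlated at -0.33 and 0.12 across genes. With 3 libraries per group, and GC trends that differ between libraries, these values cannot decide whether a shared number marks a pairing. With the replicate block on those 4 libraries 978 genes passed, 0 of them clock genes, and PER3 was 0.041 and DBP 0.12. The same 4 libraries without the block gave 0 genes, PER3 0.040 and DBP 0.13. The members' median of 0.10 was 0.24 in both of these fits. Counting error adds to the spread of DBP, TEF and PER1, which had 12 to 81 reads per library, and PER2, which had 48 to 99. For the ratio of DBP to CLOCK it was 23.9%, beside a coefficient of variation of 23.0%. The ratios of PER1, TEF and PER2 varied by more than their counting error, 36.6% beside 15.1%, 30.8% beside 15.3% and 21.5% beside 12.2%.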
